A study of Homo sapiens with 4 samples.

Results

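The 10 transcripts described here encode core proteins of stress granules. They were chosen by gene symbol from a list of the G3BP network (G3BP1, G3BP2, CAPRIN1, USP10 and UBAP2L), the TIA family (TIA1 and TIAL1) and the FMR family (FMR1, FXR1 and FXR2), because QKI7 is described as moving into stress granules with G3BP1. All 10 were found among the 26830 genes of the table. Their levels were measured by RNA immunoprecipitation sequencing (RIP-seq) in U2OS, a human osteosarcoma line, after lentiviral delivery of 3 x Flag-QKI7 and selection of the cells that were GFP-positive. QKI7 is a splice form of QKI, an RNA-binding protein of the STAR family. Input RNA (2 libraries, no antibody) and the RNA that a Flag antibody brought down (Flag-RIP, 2 libraries) came from the same kind of cells, grown without special treatment, cross-linked with ultraviolet light and sonicated, so every library carried the transgene. The construct's promoter is not given in the sources used, and a mock precipitation and cells without the tag were not analysed here. Whether replicate numbers stand for separate cultures is not stated, so the p-values cover no more than the spread between these libraries, and that spread may be technical.

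Stress granules are cytoplasmic assemblies of RNA and protein that form when translation initiation is blocked, for example after phosphorylation of the initiation factor eIF2alpha. G3BP1 and G3BP2 are RNA-binding scaffolds that start the assembly. CAPRIN1 and USP10 bind the same surface of G3BP with opposite effects on granule formation, and UBAP2L is a further scaffold. TIA1 and TIAL1 (TIAR) are related RNA-binding proteins that regulate splicing and translation and join the granules, and FMR1, FXR1 and FXR2 form a family of polysome-associated RNA-binding proteins. QKI is known to bind RNA with the sequence ACUAAY. The proteins themselves were not measured here. The values are levels of their mRNAs in cells to which no stress was applied.

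Values were TPM, a length-normalised share of each library that keeps no read depth, so no counting interval can be given. The table was rounded to steps of 0.01 TPM, so the rounding error is at most 1.35% of the lowest value of any member. 7SL RNA took 84.6% and 79.7% of the TPM in the inputs and 39.8% and 43.4% in Flag-RIP. 7SK RNA took 1.81% and 2.08% in input and 20.0% and 10.2% in Flag-RIP. The spike-in RNAs took 2.78% to 3.89% in input and 18.9% to 25.6% in Flag-RIP. The median ratio of Flag-RIP to input over the 10415 tested genes, those whose TPM averaged at least 1, was 3.32, so a rise in TPM alone is what the typical gene showed. The values were therefore also divided by a factor for each library, its median ratio to the geometric mean of the libraries, and are then called scaled TPM. On this common scale a change is read relative to the typical tested gene. QKI, which includes reads of the transgene, had 3.83 and 5.85 TPM in input and 60.7 and 42.0 in Flag-RIP, and its change on the common scale was 1.56 (SE 0.17, limma adjusted p = 0.0086). Of 8 bone and mesenchymal markers, 5 were at 1 TPM or more in both inputs, among them VIM and COL1A1, whereas RUNX2, COL1A2 and ALPL were not. Of 5 epithelial markers KRT8 and KRT18 were, and none of 4 blood or 4 neuronal markers. The summed markers ran from 254 to 346 TPM in input and 711 to 931 in Flag-RIP for the bone list, and from 72.2 to 84.4 and 98.3 to 108 for the epithelial list. The blood list reached at most 0.06 and 0.23 TPM, and the neuronal list 1.28 and 5.87. The part of these markers in the results was not tested.

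As deposited, every one of the 10 transcripts took a larger share of both Flag-RIP libraries than of both inputs, as did 96.7% of all tested genes. All 10 passed the test (limma on log2(TPM + 1), Benjamini-Hochberg adjusted p under 0.05), against a background of 92.3% of tested genes called higher and 0.317% called lower. Their median change was 1.23 on this scale and that of all tested genes 1.20. In plain TPM the order turned, with a median ratio of 2.99 for the members and 3.32 for all tested genes. Without Flag-RIP replicate 1 the call remained for 2 of 9 tested members, USP10 and TIA1, where 48.0% of all tested genes were called higher, and without Flag-RIP replicate 2 for the same 2 of 9, where 57.4% were. FMR1 fell under the filter in both cases.

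On the common scale the members parted. TIA1 rose, G3BP1, CAPRIN1 and FXR2 fell, and the other 6 did not pass the threshold. Over all tested genes 21.5% were called higher and 23.7% lower, so 1 and 3 of 10 lie near the share among genes at large. Both scaled Flag-RIP values lay above both inputs for 2 members, TIA1 and USP10 (40.1% of all tested genes), below both inputs for 5 (39.6%), and overlapped for 3. The median of the 10 changes was -0.10, beside 0.01 for all tested genes, and the middle 50% of all genes lay between -0.35 and 0.32. All 3 lower calls were lost without input replicate 1, without Flag-RIP replicate 1 and without Flag-RIP replicate 2, while 2 remained without input replicate 2. Over all tested genes the share called lower was 8.56%, 2.79% and 17.7% in the first 3 of these fits and 18.0% in the last. The rise of TIA1 passed in each of these 4 fits.

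**Figure D1:**
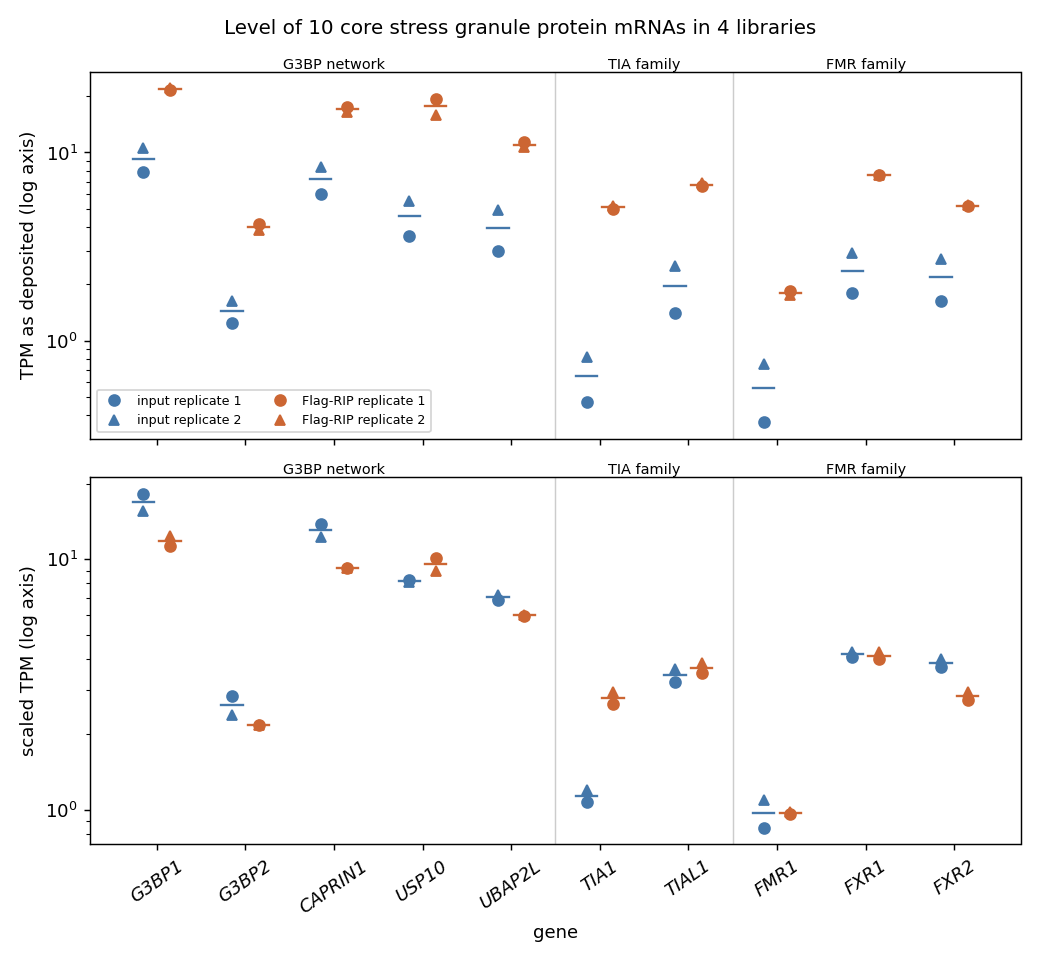
Level of each of the 10 transcripts in each library, as deposited TPM (upper panel) and as scaled TPM (lower panel), both on log axes. Circles and triangles are replicates 1 and 2, and bars are group means (n = 2). In the upper panel every Flag-RIP point lies above both inputs; in the lower panel TIA1 separates upwards, from 1.08 and 1.20 to 2.65 and 2.95, while G3BP1 and CAPRIN1 lie lower in Flag-RIP.

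Of the G3BP network, the scaffold G3BP1 was the most abundant member in every library. It lies on chromosome 5 from 151771954 to 151812785 (GRCh38). Its TPM was 7.92 and 10.6 in input and 21.5 and 22.0 in Flag-RIP. This rise of 2.35-fold in plain TPM was less than the median ratio of all genes. In scaled TPM, G3BP1 stood at 18.2 and 15.5 in input and at 11.3 and 12.4 in Flag-RIP, with no overlap between the groups. The change was -0.47 on the log2(scaled TPM + 1) scale (SE 0.13, limma adjusted p = 0.039), and 19.1% of tested genes had a change as low or lower. Its change was -0.16 with library medians set equal after the pseudocount (limma adjusted p = 0.36), where the median gene was at -0.11. It was -0.04 with the 20 most abundant rows left out and the rest rescaled (limma adjusted p = 0.88). In that setting the median gene was at 0.32.

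CAPRIN1, the translation regulator that bridges G3BP to other granule components, gave nearly the same picture. The gene is on chromosome 11 from 34051731 to 34102610. Its TPM was 6.04 and 8.39 in input and 17.6 and 16.3 in Flag-RIP. In scaled TPM it went from 13.9 and 12.3 to 9.24 and 9.21, again without overlap. The change was -0.46 (SE 0.12, limma adjusted p = 0.028). In the same alternatives as for G3BP1 it was -0.18 and -0.04 and did not pass (limma adjusted p = 0.28 and 0.90).

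USP10, a deubiquitinase that competes with CAPRIN1 for G3BP, lay on the other side of the typical gene. It maps to chromosome 16 from 84700000 to 84779922. Its TPM was 3.61 and 5.55 in input and 19.2 and 15.9 in Flag-RIP, a ratio of 3.83. Scaled values were 8.29 and 8.13 in input and 10.1 and 8.97 in Flag-RIP, so the groups did not overlap, but the change of 0.19 (SE 0.11) did not pass (limma adjusted p = 0.20). It passed as higher with library medians set equal after the pseudocount (0.43, limma adjusted p = 0.031). The same held at a TPM averaging at least 5 (0.39, limma adjusted p = 0.023). It also passed without the 20 most abundant rows (0.60, limma adjusted p = 0.019). With spike-in scaling it was negative (-0.69, limma adjusted p = 0.038). The median gene was at -0.11, 0.0039, 0.32 and -0.68 in these settings, in that order.

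UBAP2L and G3BP2 were slightly lower on the common scale without passing. UBAP2L, on chromosome 1 from 154220172 to 154271510, had 2.99 and 4.93 TPM in input and 11.3 and 10.6 in Flag-RIP, and its change on the common scale was -0.20 (SE 0.09, limma adjusted p = 0.13). G3BP2, on chromosome 4 from 75642786 to 75724437, had 1.24 and 1.63 TPM in input and 4.15 and 3.85 in Flag-RIP, with a change of -0.18 (SE 0.10, limma adjusted p = 0.17). In both genes the scaled Flag-RIP values lay below both inputs, a position shared by 39.6% of all tested genes.

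TIA1, an RNA-binding protein of U-rich sequences, stood apart from the other 9. The gene is on chromosome 2 from 70209444 to 70248793. Its TPM was 0.47 and 0.82 in input and 5.03 and 5.22 in Flag-RIP, a ratio of 7.95 in plain TPM. In scaled TPM it rose from 1.08 and 1.20 to 2.65 and 2.95, and the ratio of the group means was 2.45. The change on the log2(scaled TPM + 1) scale was 0.83 (SE 0.09, limma adjusted p = 0.0086), which ranked 660 of 10415 tested genes.

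TIA1 had under 1 TPM in both inputs and so passed the filter on mean TPM through its Flag-RIP values. Selecting genes on the inputs alone, at a mean scaled TPM of at least 1, kept it, with a change of 0.90 (limma adjusted p = 0.0058). This alternative was chosen after seeing the data. The mean input of TIA1 was 1.14 in scaled TPM but 0.65 in TPM as deposited, where the same limit would have dropped it. Leaving out any 1 library gave changes from 0.73 to 0.89 and limma adjusted p-values from 0.011 to 0.030. With a pseudocount of 0.1 the change was 1.22 and with 5 it was 0.34, both past the threshold. The call was lost with spike-in scaling, where TIA1 had 0.19 (limma adjusted p = 0.46) and the median gene -0.68. At a mean TPM of at least 5, TIA1 was not tested.

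TIAL1, the paralog of TIA1, did not pass. It lies on chromosome 10 from 119573465 to 119596964. Its TPM was 1.41 and 2.49 in input and 6.65 and 6.85 in Flag-RIP. In scaled TPM the values were 3.24 and 3.65 in input and 3.50 and 3.87 in Flag-RIP, so the groups overlapped, and the change was 0.08 (SE 0.10, limma adjusted p = 0.55).

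**Figure D2:**
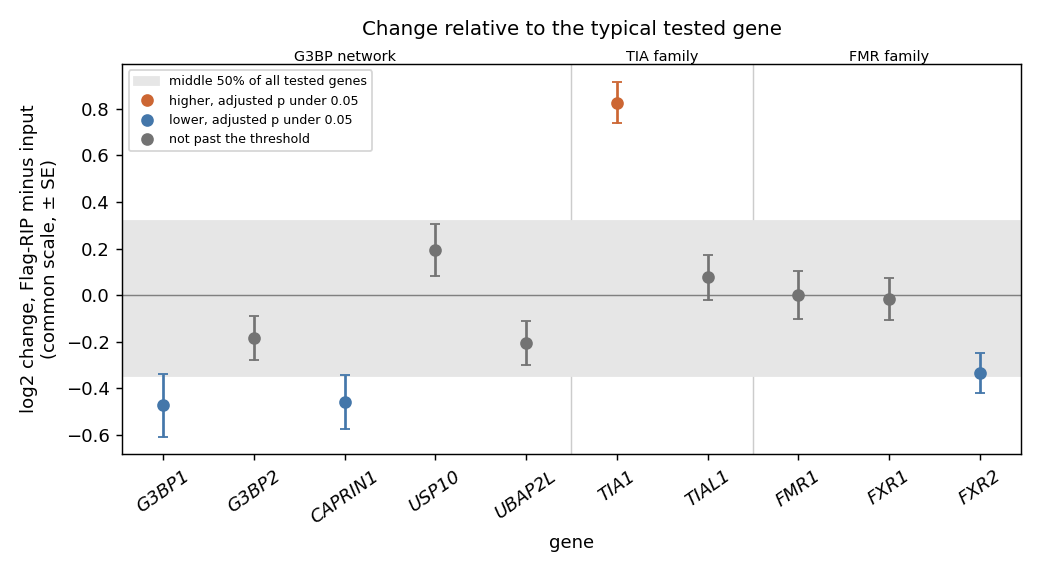
Change of each member between Flag-RIP and input on the common scale, in log2 units with the standard error of the limma fit (n = 2 libraries per group). The grey band holds the middle 50% of all 10415 tested genes; TIA1, at 0.83, lies above it, G3BP1 and CAPRIN1 lie below it, and the called change of FXR2 lies inside it.

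Of the FMR family, FXR2 was the member with a lower call. It maps to chromosome 17 from 7591230 to 7614897. Its TPM was 1.62 and 2.72 in input and 5.22 and 5.23 in Flag-RIP. Scaled values fell from 3.72 and 3.99 to 2.75 and 2.95, without overlap, with a change of -0.33 (SE 0.09, limma adjusted p = 0.031). With the 20 most abundant rows left out and the rest rescaled, the change was 0.01 without passing (limma adjusted p = 0.96), and in that setting the median gene was at 0.32.

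FXR1 and FMR1 had changes close to 0. FXR1, on chromosome 3 from 180912670 to 180982753, had 1.78 and 2.92 TPM in input and 7.57 and 7.56 in Flag-RIP. Its change on the common scale was -0.02 (SE 0.09, limma adjusted p = 0.89). FMR1, the gene silenced in fragile X syndrome, on chromosome X from 147911919 to 147951125, was the least abundant member in every library, with 0.37 and 0.75 TPM in input and 1.83 and 1.74 in Flag-RIP. It too passed the filter through Flag-RIP. Its scaled values were 0.85 and 1.10 in input and 0.96 and 0.98 in Flag-RIP, and its change was 0.0017 (SE 0.10, limma adjusted p = 0.99). With the medians set equal after the pseudocount, FMR1 had -0.47 and passed (limma adjusted p = 0.046), although its ratio in plain TPM, 3.19, was close to the median ratio of 3.32. In scaled TPM the groups of both genes overlapped.

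The order of the levels shifted with these changes. TPM is per length, so levels can be set beside each other. In input the mean TPM fell from G3BP1 (9.26) through CAPRIN1 (7.22), USP10 (4.58), UBAP2L (3.96), FXR1 (2.35), FXR2 (2.17), TIAL1 (1.95) and G3BP2 (1.44) to TIA1 (0.65) and FMR1 (0.56). Both inputs gave this same order, but the ranges of the 2 libraries separated neighbours only between CAPRIN1 and USP10, between UBAP2L and FXR1, and between G3BP2 and TIA1. In Flag-RIP, TIA1 (5.13) stood above G3BP2 (4.0) with no overlap. It did not separate from FXR2 (5.23), since TIA1 in replicate 2 and FXR2 in replicate 1 were both at 5.22. USP10 (17.6) and CAPRIN1 (16.9) overlapped there.

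Ratios between members within a library do not depend on how libraries are scaled. Of 8 pairs compared, several of which share a gene, 6 had no overlap between input and Flag-RIP. The same share over gene pairs at large was not computed. Among single tested genes on the common scale, 40.1% lay above both inputs and 39.6% below both. With 2 libraries against 2, the exact two-sided permutation test cannot give a p below 0.333, which these 6 pairs reached (0.444 after Benjamini-Hochberg adjustment over the 8), so no pair could pass a threshold and the differences are described by their spread.

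Of these 8 ratios, that of TIA1 to TIAL1 differed most between the groups and had the lowest pooled SD within them (0.010 in log2). Within Flag-RIP alone, the ratio of FXR1 to FXR2 varied less (log2 SD 0.0033 against 0.0076). The ratio of TIA1 to TIAL1 was 0.333 and 0.329 in input and 0.756 and 0.762 in Flag-RIP. The mean log2 ratio rose by 1.20 (SE 0.01), a factor of 2.29. Rounding alone can move the TIA1 value of input replicate 1 by up to 1.06%, so this small SE and the rank by spread are uncertain. Leaving out any 1 library gave differences from 1.19 to 1.21, and a pseudocount of 1 on both members gave 0.49.

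FXR1 and FXR2 also separated. Their ratio was 1.10 and 1.07 in input, nearly equal levels, and 1.45 and 1.45 in Flag-RIP, a log2 difference of 0.41 (SE 0.02). FMR1 relative to FXR2 differed by 0.44 (SE 0.14), a direction that turned with a pseudocount of 1 on both members (-0.15). FMR1 relative to FXR1 differed by 0.03 (SE 0.16), with ratios of 0.208 and 0.257 in input and 0.242 and 0.230 in Flag-RIP, so these groups overlapped. That difference was -0.12 without input replicate 1, 0.18 without input replicate 2 and -0.53 with the pseudocount.

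Within the G3BP network, the ratio of CAPRIN1 to G3BP1 differed by less than its spread, at 0.763 and 0.792 in input and 0.818 and 0.743 in Flag-RIP, a log2 difference of 0.0043 (SE 0.075). USP10 relative to G3BP1 went from 0.456 and 0.524 to 0.897 and 0.723, a log2 difference of 0.72 (SE 0.19). The ratio of G3BP1 to its paralog G3BP2 was 6.39 and 6.5 in input and 5.17 and 5.71 in Flag-RIP, a difference of -0.25 (SE 0.07) that turned to 0.12 with a pseudocount of 1 on both members. UBAP2L relative to G3BP1 differed by 0.27 (SE 0.16), with single-library ratios of 0.378 and 0.466 in input and 0.527 and 0.484 in Flag-RIP. This difference was 0.12 without input replicate 1, 0.42 without input replicate 2 and 0.14 with the pseudocount.

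**Figure D3:**
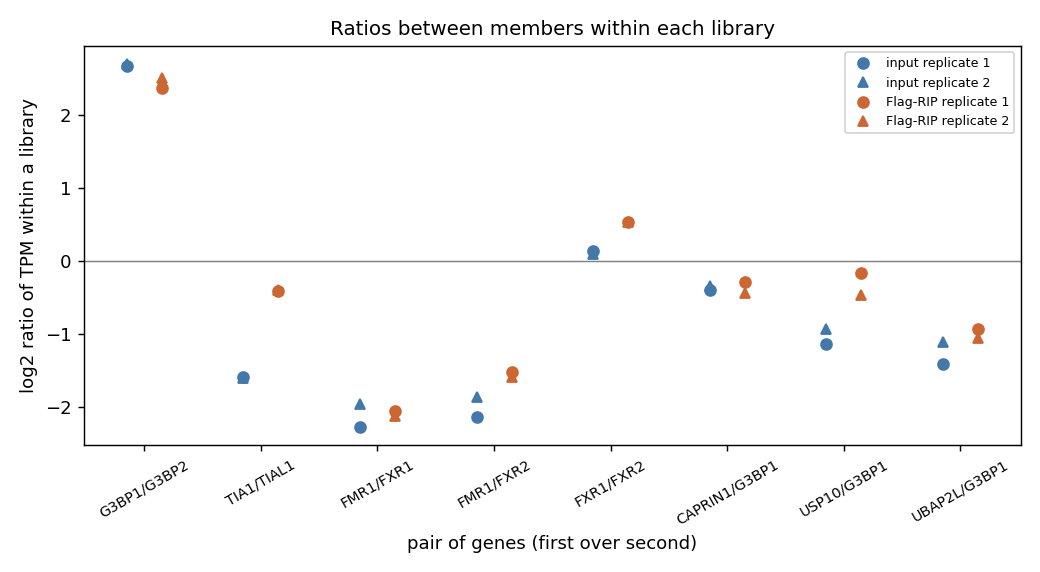
Log2 ratio of the TPM of the first gene to that of the second within each library, for 8 pairs of members. Blue is input and orange Flag-RIP, circles and triangles are replicates 1 and 2; the TIA1 to TIAL1 ratio moves from 0.333 and 0.329 to 0.756 and 0.762, whereas the points of CAPRIN1 to G3BP1 and of FMR1 to FXR1 overlap.

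Summed, the 10 transcripts made up 27.5 and 40.8 TPM of the inputs and 100.0 and 95.3 of the Flag-RIP libraries. The G3BP network held 79.4% and 76.2% of that sum in input and 73.7% and 72.1% in Flag-RIP. The TIA family held 6.85% and 8.11% in input and 11.7% and 12.7% in Flag-RIP, of which TIA1 alone went from 1.71% and 2.01% to 5.03% and 5.48%. The FMR family overlapped between the groups, at 13.7% and 15.7% in input and 14.6% and 15.3% in Flag-RIP.

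Likeness in pattern was measured for the highest and the lowest member. By the root mean square difference of log2(scaled TPM + 1), centred on each gene, over the 4 libraries, the nearest to TIA1 of 3993 genes averaging at least 5 TPM were PCNT (0.039), DGCR8 (0.039) and SCX (0.044), and 39 genes lay within 0.1. PCNT encodes a centrosomal protein, DGCR8 the partner of DROSHA in microRNA processing and SCX a transcription factor of tendon. The pseudocount of 1 is close to the scaled input of TIA1 (1.08 and 1.20). It shrinks the change of TIA1 more than that of these more abundant genes, so likeness here is not likeness in fold change. For G3BP1 the nearest were YWHAB (0.0084), IQGAP1 (0.014) and P3H4 (0.015), and 508 genes lay within 0.1.

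Other transcripts of granule proteins were spread to both sides on the common scale. Of 110 tested genes in 5 lists, 24 rose and 22 fell, 21.8% and 20.0%, with a median of 0.04. The shares over all tested genes were 21.5% higher and 23.7% lower. Of the 110, 19 had a mean input TPM under 1 and passed the filter through Flag-RIP, and 8 of these are among the 24. These counts were 8 and 1 without Flag-RIP replicate 1, 9 and 9 without input replicate 1, 14 and 19 without input replicate 2, and 27 and 15 without Flag-RIP replicate 2. Over all tested genes, the shares called higher and lower were 9.35% and 2.79%, 6.56% and 8.56%, 12.5% and 18.0%, and 21.3% and 17.7% in the same fits.

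Of 18 tested partners of G3BP and granule scaffolds, 4 rose and 2 fell, with a median of 0.09. Among all tested genes 21.5% were called higher and 23.7% lower. NUFIP2, a partner of FMR1, rose by 1.00 (0.65 and 1.17 TPM in input, 8.39 and 7.02 in Flag-RIP) and passed the filter through Flag-RIP. CAPRIN2, the paralog of CAPRIN1, rose by 0.97 (0.88 and 1.88 TPM to 11.4 and 9.18), on the side opposite to CAPRIN1. SND1, a Tudor-domain nuclease, fell by 0.74 and ANXA11, an annexin that tethers RNA granules to lysosomes, by 0.63. Adjusted p-values in the limma fit for these 4 were 0.0086 to 0.015. Leaving out any 1 library changed the calls in this list, as it changed the shares over all tested genes.

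Of 34 tested RNA-binding proteins that join granules, 7 rose and 5 fell, with a median of 0.06. Among all tested genes 21.5% were called higher and 23.7% lower. IGF2BP2, a reader of modified mRNA, had 6.35 and 10.8 TPM in input and 173 and 99.9 in Flag-RIP, a change of 2.17. RBPMS rose by 0.94 from inputs of 0.05 and 0.13 TPM to 2.16 and 2.25, and passed the filter through Flag-RIP. PTBP1, a splicing repressor, fell by 0.70 and KHDRBS1 (Sam68), which like QKI belongs to the STAR family, by 0.64. The limma adjusted p-values of these 4 were 0.0089 to 0.013. The counts of this list rest on all 4 libraries, since leaving out any 1 changed them. The shares over all tested genes changed in the same fits.

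The 22 transcripts for translation initiation factors counted 9 that fell, 4 that rose and a median of -0.26, where 23.7% of all tested genes were called lower and 21.5% higher. Both counts rest on all 4 libraries, since they changed when any 1 was left out. So did the shares over all tested genes. EIF3I fell by 1.24 and EIF3G by 1.07, both subunits of eIF3, while as deposited neither passed. PABPC1, the cytoplasmic poly(A)-binding protein, rose by 1.87 with uneven Flag-RIP values of 952 and 432 TPM. EIF3C rose by 0.75 from 0.32 and 0.76 TPM in input to 5.04 and 3.26, and passed the filter through Flag-RIP. A near-identical copy of EIF3C exists in the genome, so its share of reads is uncertain. The limma adjusted p-values of these 4 were 0.011 to 0.019.

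Of 19 transcripts for eIF2alpha kinases, phosphatases and regulators of granules, 5 rose and 5 fell, with a median of 0.02. Among all tested genes 21.5% were called higher and 23.7% lower. The heme-regulated kinase EIF2AK1 rose by 1.39 (5.89 and 8.71 TPM to 95.6 and 45.8) and the amino acid sensor EIF2AK4 by 0.63. PPP1CA, a catalytic subunit of protein phosphatase 1, fell by 1.37 and the arginine methyltransferase PRMT1 by 1.29. The limma adjusted p-values of these 4 were 0.0097 to 0.029. With any 1 library left out the calls in this list changed, and the shares over all tested genes changed too.

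**Figure D4:**
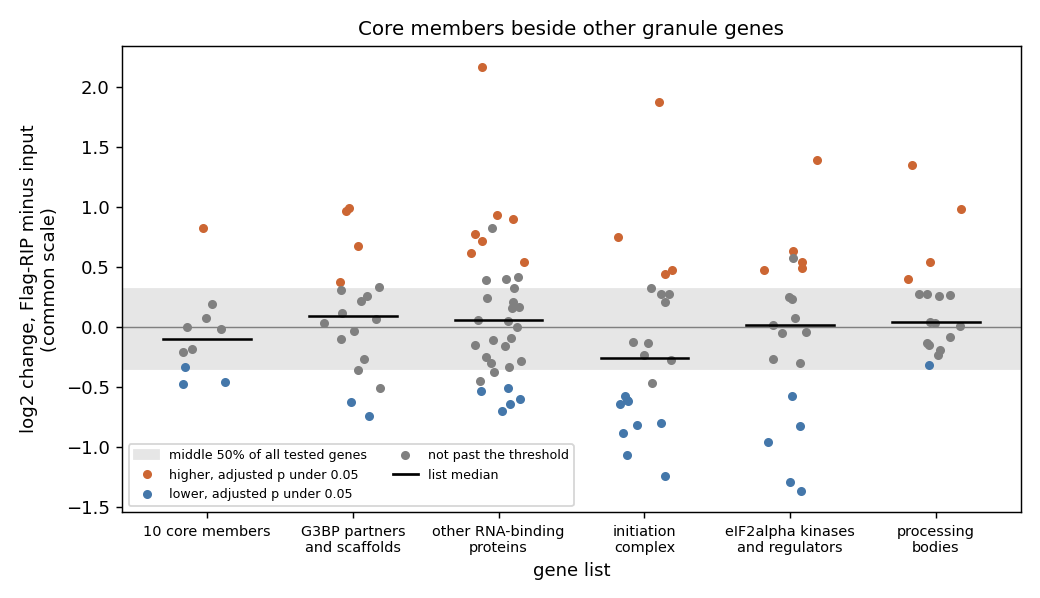
Change on the common scale (log2 units, Flag-RIP minus input) of the 10 core members and of the tested genes of 5 other lists, 1 point per gene, with list medians as black lines. The grey band holds the middle 50% of all tested genes; the medians lie between -0.26 for the initiation complex and 0.09 for the partners of G3BP.

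Direction and call were followed over the alternative settings. Some of these replace the common scale, so that 0 is not the typical gene. The median gene was at -0.11 with medians set equal, -0.02 after quantile normalization, 0.32 without the 20 most abundant rows and -0.68 with spike-in scaling. TIA1 had a positive change in all 15 alternatives in which it was tested and passed in 14. G3BP1 and CAPRIN1 had negative changes in all 16 alternatives and passed in 7 each, and FXR2 was negative in 14 of 15 and passed in 8. FMR1 changed sign in 6 of 12.

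**Figure D5:**
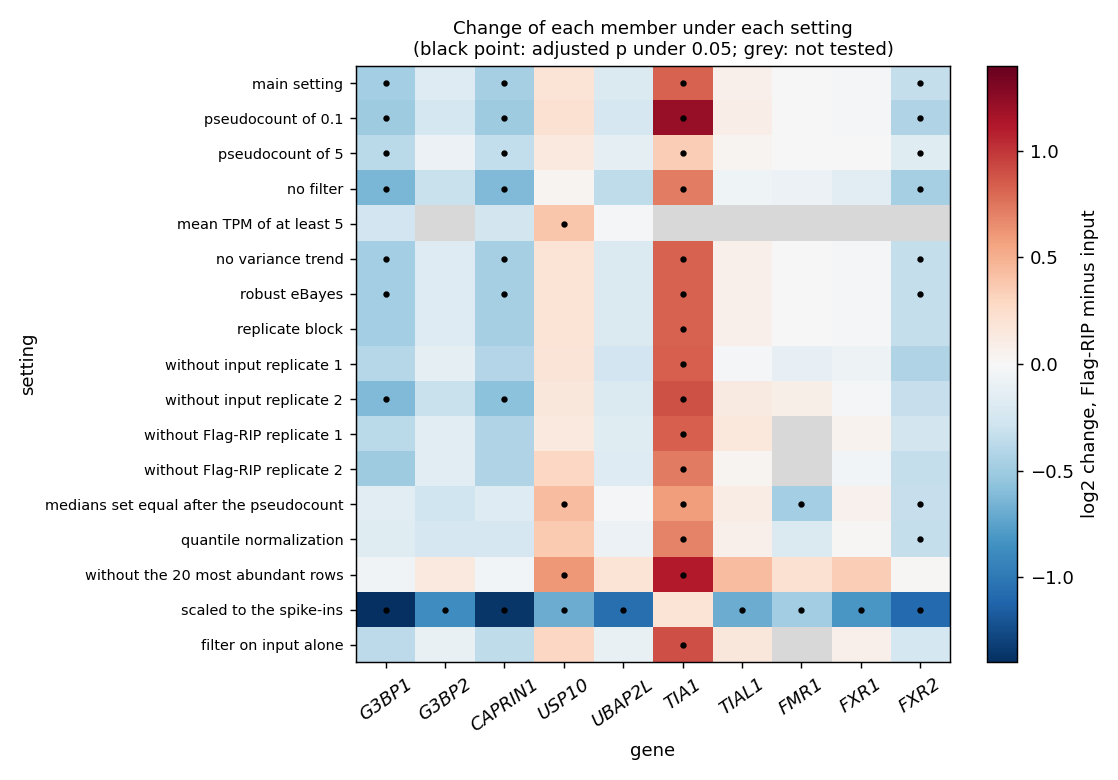
Change of each member (colour, log2 units, Flag-RIP minus input) on the common scale under the main setting, and under 16 alternatives, some of which replace that scale. A black point marks a limma adjusted p under 0.05 and grey a gene not tested. The TIA1 column is positive throughout, from 0.19 when scaled to the spike-ins to 1.22 with a pseudocount of 0.1, and 9 members are called lower with spike-in scaling, where 60.9% of all tested genes are.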

How the data were processed

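The authors deposited TPM values in 1 table, each library in its own column, made with STAR and RSEM 1.2.31 on GRCh38, per the submitters' processing notes. No annotation, filter or strand setting is named in the sources used. The 92 ERCC spike-in rows count towards the TPM total and were left out of tests. Coordinates are from RefSeq, GRCh38.p14. The 10415 genes whose TPM averaged at least 1 were tested with limma 3.58.1 in R 4.3.3 (trend, two-sided, Benjamini-Hochberg over all tested genes, threshold 0.05) on log2(TPM + 1), and on log2(scaled TPM + 1) after division by each library's median ratio, taken before the pseudocount was added so that low genes were not pulled down. Residual degrees of freedom were 2. Fold changes on these scales understate changes of low genes. The procedure was tested on simulated data. All members and QKI were named, with, for each other list, up to 2 genes with the largest called rise and fall, and the 3 genes nearest in pattern to the highest and lowest member. Members and lists were chosen with earlier results of these data known.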

Additional observations from a re-analysis of the deposited data

How the results depend on the processing

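As deposited, 4 members were called higher at a mean TPM of at least 5, where 4 were tested (87.0% of all tested genes), and 2 to 10 when any 1 library was left out (48.0% to 93.9%); none was called lower in any alternative. On the common scale the count of higher members was 2 with medians set equal after the pseudocount (16.4% of all tested genes). It was 2 without the 20 most abundant rows (37.6%) and 0 with spike-in scaling (3.12%). TIA1, the member called higher in the main fit, had changes of 0.73 to 0.89 when any 1 library was left out. The count of lower members was 0 at a mean TPM of at least 5 (27.5% of all tested genes), 0 without the 20 most abundant rows (7.15%), 0 with the filter on input alone (22.9%), an alternative chosen after seeing the data, 1 after quantile normalization (20.5%), 9 with spike-in scaling (60.9%) and 0 to 2 when any 1 library was left out (2.79% to 18.0%). With the replicate block it was 0 (17.0%), and other granule genes had 13 lower calls. The labels do not say that replicate numbers pair samples, so the block was kept as an alternative. Same-numbered deviations correlated at -0.098 over genes, and this single value cannot decide whether the libraries were paired. Other granule genes had 10 higher calls with no filter (6.76% of all tested genes). They had 48 higher and 5 lower without the 20 most abundant rows (37.6% and 7.15%) and 3 and 64 with spike-in scaling (3.12% and 60.9%). Lower calls were 14 at a mean TPM of at least 5 (27.5%), 10 with medians set equal (24.4%) and 7 after quantile normalization (20.5%). Leaving out any 1 library gave 8 to 27 higher and 1 to 19 lower. The median of all tested genes moved to -0.11 with medians set equal, 0.32 without the 20 most abundant rows and -0.68 with spike-in scaling. These settings replace the common scale, so 0 is not the typical gene in them.

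Of the members whose change on the common scale turned sign in some alternative, FXR2 was called in the main values (-0.33) and the others were not. FMR1 was at -6.4e-05 with a pseudocount of 5, -0.084 with no filter, -0.47 with medians set equal, -0.20 after quantile normalization, -0.48 with spike-in scaling and -0.12 to 0.084 when any 1 library was left out, lowest without input replicate 1. TIAL1 was at -0.060 with no filter, -0.70 with spike-in scaling and -0.013 to 0.15 when any 1 library was left out, lowest without input replicate 1. FXR1 was at -0.069 to 0.046 when any 1 library was left out, highest without Flag-RIP replicate 1, 0.058 with medians set equal, 0.016 after quantile normalization, 0.35 without the 20 most abundant rows and 0.074 with the filter on input alone. Without the 20 most abundant rows G3BP2 was at 0.14, UBAP2L at 0.19 and FXR2 at 0.014, and with spike-in scaling USP10 was at -0.69. With a pseudocount of 1 on both members, the log2 differences of ratios were 0.12 for G3BP1 to G3BP2, 0.49 for TIA1 to TIAL1, -0.53 for FMR1 to FXR1, -0.15 for FMR1 to FXR2 and 0.38 for FXR1 to FXR2. A pseudocount of 1 exceeds the deposited input TPM of TIA1 and FMR1, and otherwise the causes were not tested. TPM keeps no depth, so the reads behind the low inputs of TIA1 and FMR1 are unknown.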

Other observations

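Transcripts of processing bodies, the cytoplasmic sites of mRNA decay and silencing that dock with stress granules, were tested for 17 genes. On the common scale 4 rose, 1 fell and 12 did not pass, with a median of 0.04, where 21.5% of all tested genes were called higher and 23.7% lower. The 2 largest rises were in the GW182 family of Argonaute partners. TNRC6A had 1.33 and 2.08 TPM in input and 19.2 and 15.3 in Flag-RIP, a change of 1.35 (SE 0.11, limma adjusted p = 0.0074). TNRC6C had 0.49 and 0.77 TPM in input and 6.69 and 5.14 in Flag-RIP, a change of 0.98 (SE 0.10, limma adjusted p = 0.0086), and passed the filter through Flag-RIP. The decapping scaffold EDC4 fell by 0.32 (SE 0.09, limma adjusted p = 0.039). When any 1 library was left out, the calls in this list changed, as did the shares over all tested genes.

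The RefSeq promoter windows (GRCh38.p14, 250 bases before to 50 after each start) of all 10 core members were searched on both strands for ACTAAC and ACTAAT. None held either, against 10.4% of 27305 windows, which says only that these letters are not in these windows. The windows hold at most 50 transcribed bases, and sequences of the mature transcripts were not used here.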
